A study of Mus musculus with 25 samples.

Results

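Heat shock chaperones are proteins that keep other proteins folded, and several of their genes are switched on within minutes of heat, injury or enzymatic handling of cells. The 10 genes described here were chosen by symbol from the 43693 genes of the table of sorted cells and were followed by gene identifier into the other tables. They are Hspa1a, Hspa1b, Hspa8, Hsph1, Hspb1, Hsp90aa1, Dnajb1, Bag3, Hspa5 and Hsf1, and each of the 10 passed the filter on low counts in every table.

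The heat shock response is run by HSF1, a transcription factor held inactive in unstressed cells. When misfolded proteins accumulate, HSF1 forms trimers that bind heat shock elements, repeats of GAA in alternating orientation, and HSP70, HSP40 and HSP90 genes are transcribed. Hspa5 belongs to a separate branch, the unfolded protein response of the endoplasmic reticulum (ER), and small heat shock proteins such as HSPB1 are abundant in reactive astrocytes and blood vessels of the injured cord.

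The series holds 25 mouse RNA libraries. Of these, 11 came from tdTomato+ cells sorted from spinal cords of GFAP-Cre-/+:R26-tdT-/+ mice, in which a Gfap promoter drives Cre and so marks cells that express or once expressed it. Injured mice had received a 60 kdyn contusion of thoracic segment 9. Cells were taken from sham mice 7 days after laminectomy alone (3 libraries) and from injured mice at 7 days (3), 1 month (3) and 3 months (2, replicates 1 and 3). Before sorting, the cord was digested with papain and trypsin and stripped of myelin with beads. Epicentre tissue of C57BL/6 mice with the same injury was collected at 1 month (3) and 3 months (3) with no dissociation or sorting step in its protocol, and each sorted or tissue library pooled 3 mice. No tissue library came from sham mice or from 7 days, so sorted cells and tissue can be compared at 1 and 3 months only. The other 8 libraries came from cultured brain astrocytes of C57BL/6 pups of postnatal day 4 to 7, infected with a control or a knockdown lentivirus against the long non-coding RNA Zeb2os (2 and 2) or against the transcription factor gene Zeb2 (2 and 2) and selected in puromycin at 1 µg/ml. Selection began 24 h after infection in the Zeb2os set and 48 h after it in the Zeb2 set. The labels do not say that paired culture libraries were separate cultures, so their p-values measure only the spread between these libraries, which may be technical.

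Promoter windows that hold a motif of either branch of the response are printed first. RefSeq promoter windows of build GRCm38.p6 were matched for 7 of the 10 members, and the 250 bases before the start were searched on both strands for the heat shock element in either of 2 forms, GAANNTTC or TTCNNGAA, and for the ER stress element (the letters CCAAT and CCACG with 9 bases between). Of 32851 such windows in the table, 12.8% held a heat shock element of either form and 0.113% an ER stress element. A heat shock element was present in 4 members, Hspa1a, Hspa1b, Hsph1 and Hspb1, and the ER stress element in Hspa5. The windows of Dnajb1 and Bag3 held neither in these exact forms, and other forms and places were not searched. The windows that held one lie at chr17:34972157-34972406 (Hspa1a, minus strand), chr17:34959239-34959488 (Hspa1b, minus), chr5:149636337-149636586 (Hsph1, minus), chr5:135887669-135887918 (Hspb1, plus) and chr2:34771840-34772089 (Hspa5, plus). Each of these is printed from 5′ to 3′ toward the start, with the motif in capitals. Hsph1 and Dnajb1 had 2 windows each. Of these, the Dnajb1 window at chr8:83608298-83608547 (plus) lies inside the annotated gene (chr8:83608193-83612653). The second Hsph1 window (chr5:149636316-149636565, minus) held the same match, 54 bases before its start, and is not printed.

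Hspa1a: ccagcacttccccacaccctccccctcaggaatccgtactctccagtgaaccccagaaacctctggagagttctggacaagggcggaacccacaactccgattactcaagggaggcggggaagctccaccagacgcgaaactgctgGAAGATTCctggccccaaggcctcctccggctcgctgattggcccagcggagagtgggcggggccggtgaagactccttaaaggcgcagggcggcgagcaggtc
Hspa1b: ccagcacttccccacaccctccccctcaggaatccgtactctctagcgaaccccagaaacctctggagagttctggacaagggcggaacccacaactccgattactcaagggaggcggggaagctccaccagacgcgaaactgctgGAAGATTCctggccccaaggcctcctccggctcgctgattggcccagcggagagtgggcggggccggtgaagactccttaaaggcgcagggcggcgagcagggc
Hsph1: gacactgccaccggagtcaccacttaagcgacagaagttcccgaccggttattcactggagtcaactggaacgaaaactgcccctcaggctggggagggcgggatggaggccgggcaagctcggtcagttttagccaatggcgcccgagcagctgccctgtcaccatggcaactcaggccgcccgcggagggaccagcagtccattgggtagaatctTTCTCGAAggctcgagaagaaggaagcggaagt
Hspb1: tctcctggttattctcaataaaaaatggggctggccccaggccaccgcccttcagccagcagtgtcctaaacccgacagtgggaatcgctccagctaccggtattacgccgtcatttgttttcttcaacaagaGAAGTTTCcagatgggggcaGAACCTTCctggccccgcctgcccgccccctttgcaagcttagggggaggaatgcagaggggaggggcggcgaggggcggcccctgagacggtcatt
Hspa5: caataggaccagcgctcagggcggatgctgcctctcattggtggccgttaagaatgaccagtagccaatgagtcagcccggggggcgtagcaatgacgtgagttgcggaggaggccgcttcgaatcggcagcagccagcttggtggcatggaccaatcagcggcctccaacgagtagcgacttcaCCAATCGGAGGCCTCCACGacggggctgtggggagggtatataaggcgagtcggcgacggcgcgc

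In the printed windows the match begins 104 bases before the start in Hspa1a and Hspa1b and 33 bases before it in Hsph1. It begins 117 and 97 bases before the start in Hspb1 and 65 bases before it in Hspa5. The Hspa1a and Hspa1b windows differ at 3 of 250 bases (98.8% identity). A match of letters is a description of the window and no evidence that a factor bound it in these cells.

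**Figure D1:**
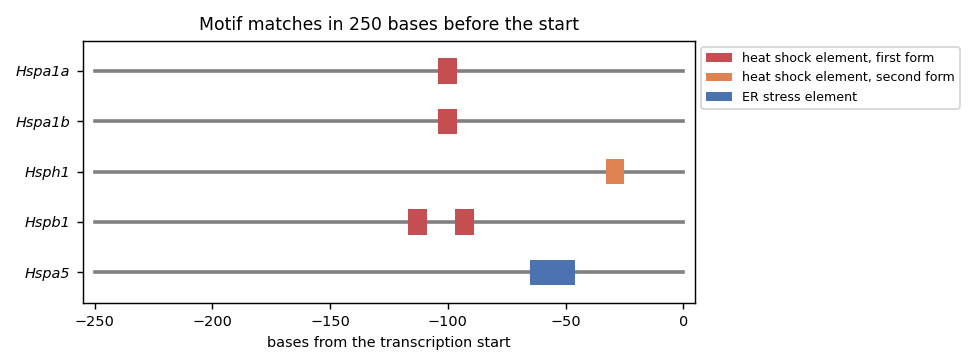
Position of motif matches in the 250 bases before the transcription start of 5 members (horizontal axis, bases from the start). Red and orange boxes are heat shock elements of the first and second form, which lie at the same place in Hspa1a and Hspa1b, and the blue box is the ER stress element of Hspa5.

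Hspa1a (chr17:34969190-34972156 in GRCm38) and Hspa1b (chr17:34956436-34959238) are single-exon genes beside each other on the minus strand and encode the stress-inducible HSP70. Of the 100-base stretches of their transcripts, 56.5% in Hspa1a and 49.9% in Hspa1b also occur in another gene, mostly in each other, so the split of reads between them is uncertain and their sum is the safer quantity. Hspa1a also shares 564 exonic bases (19%) with Gm20481 on the opposite strand, and how counting treated strand is not given in the sources used here. That share was 28.5% for Hspa8, 38% for Hsp90aa1 and 44% for Hspb1, which shares sequence with Hsp25-ps1, so these levels are uncertain too, and it was 0% for the other 5 members.

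Total counts ran from 15.7 to 50.2 M per library in sorted cells, 15.4 to 27.1 M in tissue, 45.6 to 158 M in the Zeb2os set and 29 to 65.4 M in the Zeb2 set. M stands for mega. Levels are given as CPM (counts per M counts), scaled within each table. The 9 astrocyte markers examined summed to 833 to 4410 CPM in sorted libraries and 9680 to 12900 CPM in tissue, whereas 6 markers of oligodendrocyte precursors summed to 5080 to 8270 CPM in sorted libraries and 510 to 662 CPM in tissue. Within the astrocyte list, Gfap stood at 166 to 1440 CPM in sorted libraries and 5880 to 9060 CPM in tissue. Aqp4 stood at 46.2 to 640 and 857 to 1190 CPM. Slc1a3 overlapped between the kinds, at 96.4 to 372 CPM in sorted libraries and 155 to 183 CPM in tissue. The precursor markers go against a pure astrocyte label, and the sorted material is called tdTomato+ cells here. Neuron markers summed to 114 to 160 CPM in sorted libraries and 2150 to 3700 CPM in tissue, and oligodendrocyte markers to 376 to 1840 and 18200 to 26800 CPM. In such bulk samples, fewer cells of a type and less RNA per cell cannot be told apart. In the cultures labelled Zeb2os knockdown, Zeb2os itself differed from control by -0.36 ± 0.35 (log2 ± SE, adjusted p = 0.73). In the cultures labelled Zeb2 knockdown, Zeb2 differed by -2.83 ± 0.33, with an adjusted p of 1 in the 2 against 2 design.

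Together the 10 members took 0.427 to 0.549% of counts in sorted sham libraries, 0.297 to 0.364% in the sorted injured libraries, 0.262 to 0.335% in tissue and 0.381 to 0.65% in cultures. Per kilobase of exon, Hsp90aa1 and Hspa8 led in sham cells and Hsf1 was lowest. In sham cells the order of mean levels was Hsp90aa1 (343 CPM per kb), Hspa8 (312), Hspa5 (155), Hspa1b (142), Dnajb1 (116), Hspa1a (65), Hsph1 (55.8), Bag3 (27.9), Hspb1 (22.7) and Hsf1 (6.56). Neighbours in that order overlapped between libraries except for Dnajb1 above Hspa1a, Hsph1 above Bag3 and Hspb1 above Hsf1. At 7 days Hspa8 (312 CPM per kb) was followed by Hspa5 (219) and Hsp90aa1 (167), with no overlap between these neighbours. In tissue at 1 month the order differed, with Hspb1 (227 CPM per kb) second behind Hspa8 (290) and with Hspa1b (2.26) and Hspa1a (2) at the bottom, below Hsf1 (6.87).

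**Figure D2:**
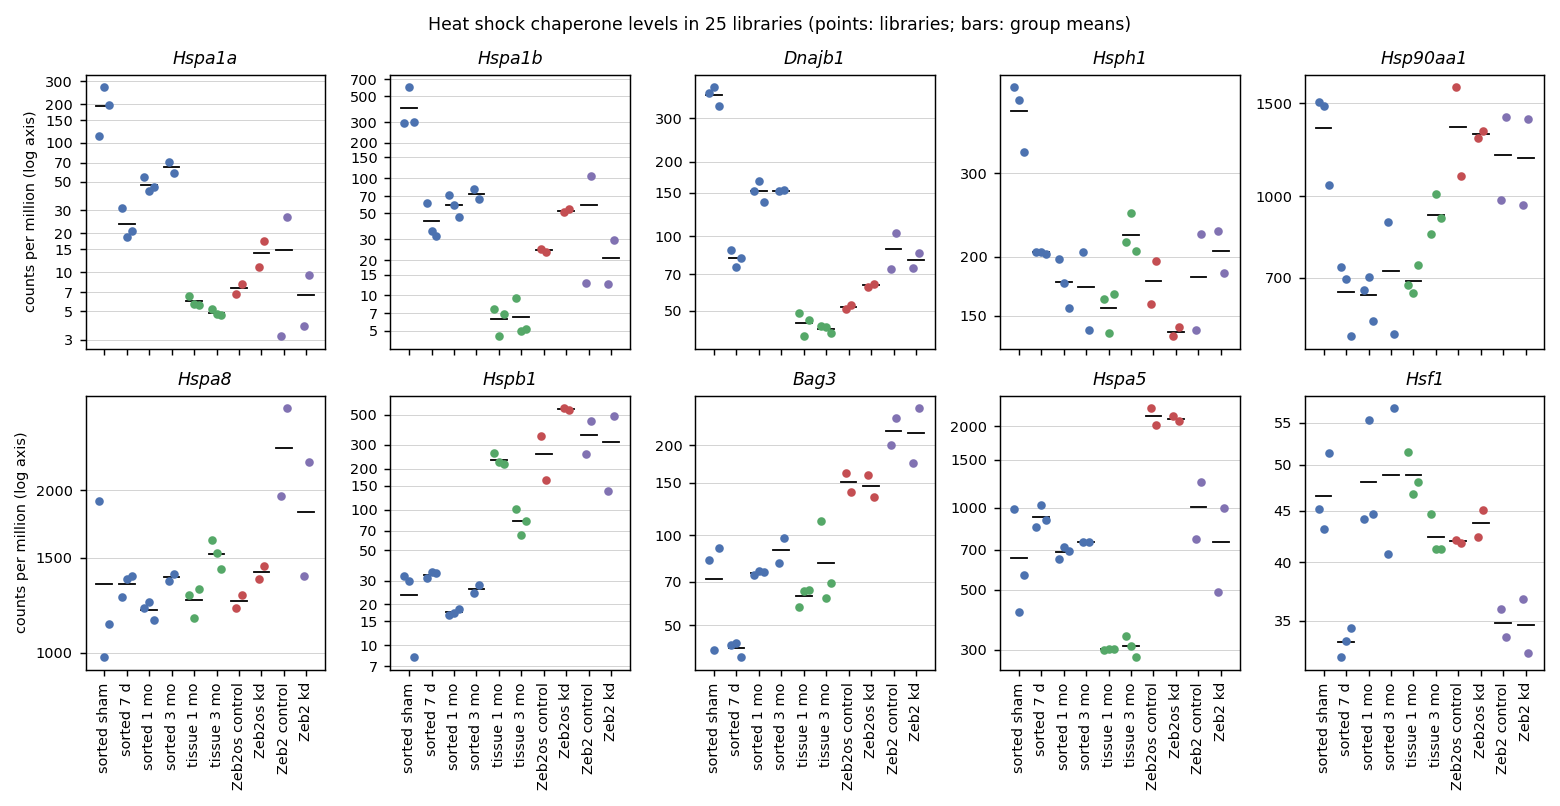
CPM (log axis) of each member in every library, in blue for sorted cells, green for tissue, red for the Zeb2os set and purple for the Zeb2 set, with group means as bars. Hspa1a and Hspa1b were lower in the 6 tissue libraries than in any sorted library and highest in the 3 sham libraries, and Hspb1 was higher in each tissue library than in any sorted library.

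Sorted cells were first compared with tissue, which addresses how far dissociation and sorting go with a stress signature. The 2 tables were fitted together with edgeR's quasi-likelihood test, and a member is called higher, lower, risen or fallen where p, adjusted over every gene tested by the Benjamini-Hochberg method, was under 0.05. Inducible HSP70, its co-chaperone Dnajb1 and the ER chaperone Hspa5 were higher in sorted cells at both times, and Hspb1 was lower. At 1 month 4 of 10 members were higher and 1 lower, against 23.3% and 28.2% of the 23259 genes tested. At 3 months 4 were higher and 4 lower, against 22.5% and 28.2% of genes. The median log2 difference of the members was 0.12 at 1 month and -0.01 at 3 months, beside -0.07 at each time over the genes tested.

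Hspa1b stood at 71.3, 58.4 and 46.8 CPM in the 3 sorted libraries at 1 month and at 7.62, 4.49 and 6.87 CPM in tissue. At 3 months it stood at 81.1 and 66.1 CPM in sorted cells and at 9.55, 5 and 5.13 CPM in tissue. The groups did not overlap at either time, and the differences were 3.13 ± 0.29 (log2 ± SE, 8.73-fold, adjusted p = 4e-06) and 3.31 ± 0.3 (9.95-fold, adjusted p = 4e-06). Hspa1a gave 54, 42.6 and 45.4 CPM in sorted cells at 1 month against 6.49, 5.69 and 5.6 CPM in tissue, and 71.7 and 58.9 against 5.16, 4.74 and 4.67 CPM at 3 months. Its differences of 2.9 ± 0.15 (adjusted p = 3.7e-08) and 3.58 ± 0.16 (adjusted p = 1.8e-08) were of the same order as those of Hspa1b. The tissue counts behind these values were 78 to 250 reads for Hspa1b and 98 to 135 for Hspa1a.

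Dnajb1 encodes an HSP40 that delivers clients to HSP70 and drives its ATP cycle. It stood at 152, 167 and 138 CPM in sorted cells and 48.9, 39.4 and 45.8 CPM in tissue at 1 month, a difference of 1.67 ± 0.1 (3.19-fold, adjusted p = 1.5e-07). At 3 months the values were 152 and 154 CPM against 43.2, 42.9 and 40.7 CPM, a difference of 1.68 ± 0.11 (adjusted p = 3.1e-07). Every sorted library was above every tissue library by about the same factor at the 2 times.

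Other partners of HSP70 did not separate in the same way. Hsph1, an HSP110 that exchanges nucleotide on HSP70, stood at 198, 176 and 156 CPM in sorted cells and 163, 138 and 167 CPM in tissue at 1 month, and was not called. At 3 months it was lower in sorted cells (205 and 140 CPM against 215, 247 and 206), by -0.54 ± 0.17 (adjusted p = 0.023). That call was lost without sorted replicate 3 (adjusted p = 0.18) or tissue replicate 2 (adjusted p = 0.072). Bag3, a co-chaperone that links HSP70 to autophagy, stood at 73.5 to 76.1 CPM in sorted cells and 57.6 to 65.4 CPM in tissue at 1 month. The difference was 0.16 ± 0.18 (adjusted p = 0.48). These groups did not overlap, as for 28.1% of all genes in that direction. With edgeR on only the 2 groups, Bag3 was called higher (0.22, adjusted p = 0.039).

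The constitutive HSP70 gene Hspa8 and the stress-inducible HSP90 gene Hsp90aa1, whose product chaperones signalling proteins, were close to their tissue levels. At 1 month Hspa8 differed by -0.15 ± 0.08 (adjusted p = 0.13) and Hsp90aa1 by -0.19 ± 0.16 (adjusted p = 0.35), neither of them called. At 3 months Hspa8 was lower in sorted cells (1360 and 1400 CPM against 1430 to 1620) by -0.32 ± 0.09 (adjusted p = 0.011), a call lost with limma voom weights per sample kind (adjusted p = 0.065). Hsp90aa1 was lower by -0.52 ± 0.18 (adjusted p = 0.031), and this call was lost without sorted replicate 3 (adjusted p = 0.21), tissue replicate 2 (adjusted p = 0.088) or tissue replicate 3 (adjusted p = 0.059). The ratio of inducible to constitutive HSP70, Hspa1a plus Hspa1b over Hspa8 in counts, was 0.08 to 0.112 in these sorted libraries and 0.00635 to 0.0111 in tissue.

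Hspb1, a small heat shock protein that holds unfolded clients and binds actin, went the other way. It stood at 16.6, 17.3 and 18.6 CPM in sorted cells and 260, 225 and 217 CPM in tissue at 1 month, a difference of -3.84 ± 0.16 (14.3-fold lower, adjusted p = 6.6e-09). At 3 months the values were 24.1 and 27.9 CPM against 101, 64.5 and 82.4 CPM, a difference of -1.84 ± 0.17 (3.59-fold lower, adjusted p = 4.2e-06). No sorted library reached the lowest tissue library.

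Hspa5, the ER chaperone BiP, stood at 648, 716 and 691 CPM in sorted cells and 300, 303 and 303 CPM in tissue at 1 month, a difference of 1.08 ± 0.08 (2.12-fold, adjusted p = 4.1e-07). At 3 months it stood at 751 and 748 CPM against 338, 310 and 282 CPM, a difference of 1.1 ± 0.08 (adjusted p = 8.9e-07). Hsf1 was not called at either time. Its levels were 44.1 to 55.4 CPM in sorted cells and 46.8 to 51.5 CPM in tissue at 1 month, so the ranges overlapped.

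**Figure D3:**
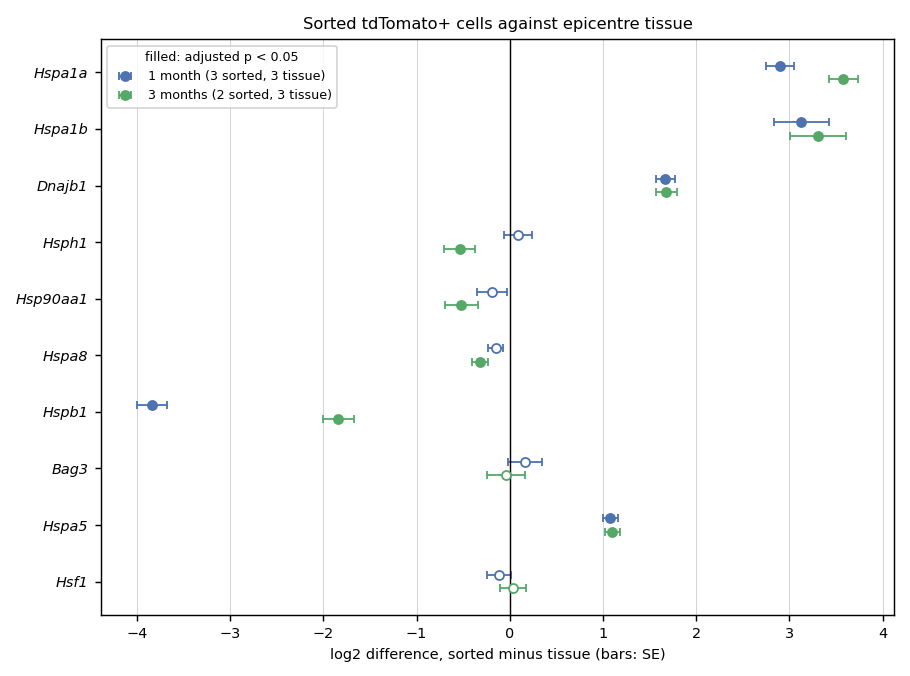
Log2 difference of each member between sorted cells and tissue at 1 and 3 months (horizontal axis, bars are SE, filled points have an adjusted p under 0.05). Hspa1a, Hspa1b, Dnajb1 and Hspa5 lie to the right of 0 at both times and Hspb1 to the left, at -3.84 and -1.84.

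Related genes give the setting of these differences. Immediate early genes, which are transcribed within minutes of a stimulus, were higher in sorted cells for 20 of 21 genes at each time, with a median difference of 4.44 at 1 month and 5 at 3 months. Their summed level was 19000 to 26200 CPM in sorted cells at these times and 520 to 861 CPM in tissue. Fos differed by 6.79 ± 0.16 and Fosb by 9.37 ± 0.18 at 1 month. The part of handling, of the time between death and lysis and of the different cell makeup in the HSP70 differences was not tested. Sorted cells and tissue also came from different mouse lines, and their counts were supplied as separate sets. The part of these was not tested either. Preparation, cell makeup, mouse line and count set cannot be told apart in this design.

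Among 27 ER chaperone and unfolded protein response genes, 16 were higher and 3 lower in sorted cells at 1 month (median 0.43), and 20 higher and 1 lower at 3 months (median 0.5). Ppp1r15a, which directs dephosphorylation of eIF2α, differed by 3.58 ± 0.18 at 1 month, and the stress transcription factor gene Atf4 by 1.08 ± 0.08. Chac1, a glutathione-degrading target of the same pathway, was lower by -2.16 ± 0.36, so the list did not move as a block. Of 20 other heat shock response genes, 17 of them also in another list, 5 were higher and 5 lower at 1 month. At 3 months 4 of these were higher and 8 lower. Of 24 HSP70 relatives and co-chaperones, 5 were higher and 9 lower at 1 month, and 5 higher and 10 lower at 3 months. Of all genes tested, 23.3% were higher and 28.2% lower at 1 month, and 22.5% and 28.2% at 3 months. Without tissue replicate 1 or 3, 3 of the list were higher at 3 months. Hspa2 was the HSP70 relative with the largest rise (1.92 ± 0.16 at 1 month) and Dnajb2, a neuronal HSP40, the co-chaperone with the largest fall (-1.73 ± 0.09).

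Of 6 small heat shock proteins tested, 3 were lower at 1 month and 2 at 3 months, beside 28.2% of all genes tested at each time. Hspb8, a partner of BAG3, was lower by -2.52 ± 0.18 and -2.28 ± 0.21, and Cryab, encoding αB-crystallin, by -1.28 ± 0.12 and -0.91 ± 0.14. Of 11 HSP90 partners and co-chaperones none was higher, with 2 lower at 1 month and 6 at 3 months, beside the same 28.2% of all genes. Of 8 mitochondrial chaperones and proteases none was higher, with 5 lower at 1 month (3 without sorted replicate 2 or 3 or tissue replicate 3) and 6 at 3 months (2 without sorted replicate 1 and 3 without tissue replicate 3). Of 8 cytosolic chaperonin subunits, 6 were higher and 0 lower at 1 month, beside 23.3% of all genes higher. With a library left out, 2 to 6 were higher. At 3 months 0 of them were higher and 3 lower, and fewer were lower with any library left out. Among the other heat shock factors, Hsf2 was higher by 1.12 ± 0.11 at 1 month and Hsf4 lower by -3.37 ± 0.15.

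Next, sorted cells of injured cords were compared with sorted sham cells, which went through the same dissociation. The 3 comparisons share the 3 sham libraries, so they are not independent of each other. Inducible HSP70, Dnajb1, Hsph1 and Hsp90aa1 fell at each time, and no member rose. At 7 days 6 of 10 members fell and 0 rose, against 8.41% and 9.87% of 24286 genes tested. At 1 month 5 fell and 0 rose, against 5.83% and 6.23% of genes. At 3 months 5 fell and 0 rose, against 4.93% and 6.78% of genes. The members' median log2 change was -0.88, -0.74 and -0.43 at the 3 times, beside -0.06, -0.02 and -0.1 over the genes tested.

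Hspa1b stood at 293, 599 and 302 CPM in the sham libraries. It stood at 61.2, 35.7 and 31.8 CPM at 7 days, with each injured library below each sham library. The change was -3.22 ± 0.31 (9.29-fold lower, adjusted p = 5.7e-06) at 7 days, -2.76 ± 0.3 (adjusted p = 3e-05) at 1 month and -2.43 ± 0.35 (adjusted p = 0.00027) at 3 months. Sham replicate 2 was the highest of the 11 sorted libraries for both inducible HSP70 genes, and without it the Hspa1b change at 7 days was still called.

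Hspa1a stood at 113, 271 and 195 CPM in sham cells and at 31.2, 18.6 and 20.7 CPM at 7 days, again without overlap. Its change was -3.04 ± 0.29 (8.23-fold lower, adjusted p = 4.4e-06) at 7 days, -2.03 ± 0.28 (adjusted p = 0.00019) at 1 month and -1.56 ± 0.31 (adjusted p = 0.0037) at 3 months. The 3-month call was lost without 3-month replicate 3 (adjusted p = 0.055). The ratio of Hspa1b to Hspa1a counts was 1.55 to 2.6 in sham libraries and 1.54 to 1.96 in those of 7 days, but 1.03 to 1.37 in those of 1 month and 1.12 to 1.13 in those of 3 months, so Hspa1b led Hspa1a by less at the later times, with the reservation on shared sequence given above.

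Dnajb1 also fell without overlap between groups. Its levels were 380, 402 and 336 CPM in sham cells, 88.2, 75 and 81.8 CPM at 7 days, 152, 167 and 138 CPM at 1 month and 152 and 154 CPM at 3 months. The change was -2.19 ± 0.15 (4.56-fold lower, adjusted p = 3.7e-07) at 7 days, -1.29 ± 0.15 (adjusted p = 4.8e-05) at 1 month and -1.28 ± 0.17 (adjusted p = 0.00014) at 3 months. The sham libraries were thus above every injured library, and the 7-day libraries below every other one.

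Hsph1 and Hsp90aa1 fell by about 1 on the log2 scale and stayed at that level. Hsph1 stood at 456, 429 and 332 CPM in sham cells and 205, 205 and 203 CPM at 7 days, and its changes were -0.99 ± 0.18 (adjusted p = 0.0011), -1.2 ± 0.18 (adjusted p = 0.00043) and -1.23 ± 0.21 (adjusted p = 0.00095) at the 3 times. The 3-month call was lost when only those 2 groups were fitted (adjusted p = 0.064). Hsp90aa1 stood at 1510, 1480 and 1050 CPM in sham cells, 734, 698 and 543 CPM at 7 days, 664, 702 and 579 CPM at 1 month and 894 and 547 CPM at 3 months. Its changes were -1.04 ± 0.21 (adjusted p = 0.0025), -1.06 ± 0.21 (adjusted p = 0.0034) and -0.9 ± 0.24 (adjusted p = 0.021), and the last was lost without 3-month replicate 3 (adjusted p = 0.34).

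Bag3 fell at 7 days only in a fragile call. Its levels were 82.7, 41.4 and 90.6 CPM in sham cells and 42.8, 43.5 and 39.1 CPM at 7 days, so sham replicate 2 lay within the injured range. The change of -0.78 ± 0.23 had an adjusted p of 0.026, which ranged from 0.063 to 0.13 when sham replicate 1 or 3 or any of the 7-day replicates was left out. At 3 months Bag3 stood at 80.6 and 97.6 CPM, a change of 0.32 ± 0.25 (adjusted p = 0.46).

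Hspa8, Hspb1, Hspa5 and Hsf1 showed no called change against sham. Hspa8 stood at 1910, 982 and 1130 CPM in sham cells and 1270, 1370 and 1390 CPM at 7 days. Hspa5 stood at 986, 412 and 565 CPM in sham cells and 847, 1020 and 904 CPM at 7 days, a change of 0.5 ± 0.24 (adjusted p = 0.18). Without sham replicate 1, the highest sham library for both genes, the Hspa5 change was 0.92 at 7 days and 0.62 at 3 months, and both passed the threshold (adjusted p = 0.00071 and 0.026).

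Hspb1 stood at 32.2, 29.9 and 8.17 CPM in sham cells, 31.2 to 34.5 CPM at 7 days and 16.6 to 18.6 CPM at 1 month. Its changes were 0.5 ± 0.35 at 7 days (adjusted p = 0.39) and -0.42 ± 0.35 at 1 month (adjusted p = 0.51), and without sham replicate 3, the low library, the second was -0.83 (adjusted p = 0.0091). Hsf1 stood at 45.2, 43.2 and 51.3 CPM in sham cells and 32.2 to 34.4 CPM at 7 days, so the ranges did not overlap, but the change of -0.48 ± 0.18 was not called (adjusted p = 0.083). The other 4 members at each later time, Hspa8, Hspa5 and Hsf1 with Bag3 at 1 month and Hspb1 at 3 months, changed by -0.16 to 0.2 and were not called.

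**Figure D4:**
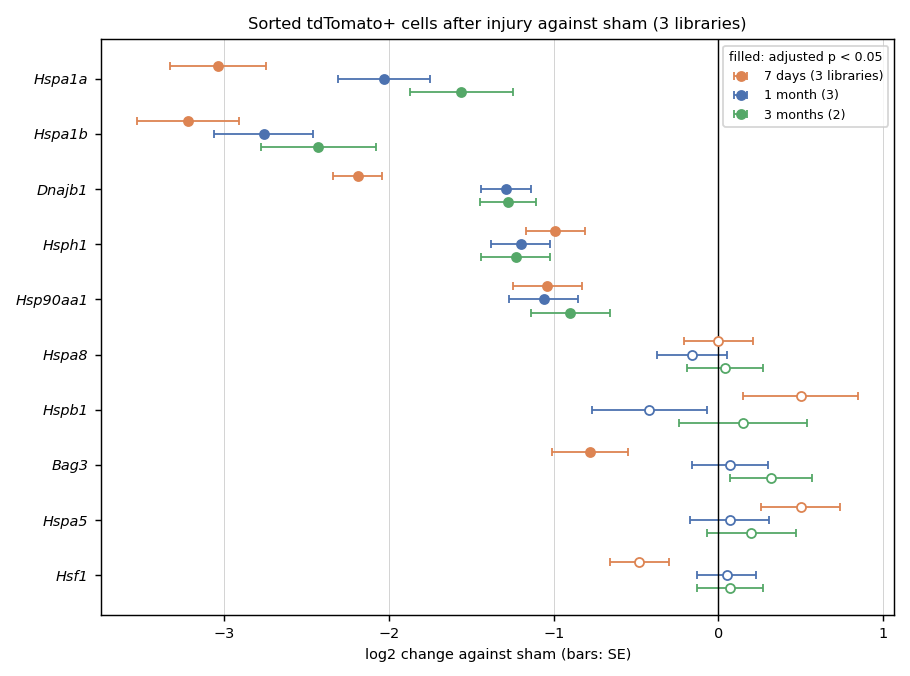
Log2 change of each member in sorted cells at 7 days, 1 month and 3 months against sham (horizontal axis, bars are SE, filled points have an adjusted p under 0.05). The top 5 genes were lower at each time, with the largest fall in Hspa1b (-3.22 at 7 days), while Hspa8, Hspb1, Hspa5 and Hsf1 have open points.

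Other lists moved between sham and injured cells to differing extents. Of 20 other heat shock response genes, 3 fell at 7 days, 3 at 1 month and 2 at 3 months, and 0 rose. Of all genes, 8.41%, 5.83% and 4.93% fell at these times. The median changes of that list were -0.17, -0.33 and -0.29. With a library left out, 2 to 4 fell and 0 to 4 rose at 7 days, and 2 to 6 fell at 1 month. Of 11 HSP90 partners and co-chaperones, 1 rose and 1 fell at each time. Of 21 immediate early genes, 12 fell and 1 rose at 7 days (17 fell without sham replicate 2), with a median of -1.2. Their summed level was 13800 to 31300 CPM in sham libraries and 9120 to 9640 CPM in those of 7 days. It was 19000 to 22200 CPM at 1 month and 24000 to 26200 CPM at 3 months. Within sham cells the library with the most Hspa1a and Hspa1b (870 CPM, replicate 2) had the lowest immediate early sum (13800 CPM). At 1 month 1 immediate early gene fell and 2 rose, and at 3 months none fell and 2 rose. Those counts rested on single libraries, since 10 fell at 1 month and 4 at 3 months without sham replicate 2, and 5 rose at each of these times without sham replicate 3.

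The cell markers moved too. Fibroblast and mural markers (6) summed to 65.1 to 178 CPM in sham cells and 1230 to 1480 CPM at 7 days. Microglia and macrophage markers (7 of 8 matched) summed to 276 to 1280 and 1710 to 2170 CPM, and astrocyte markers (9) to 3300 to 4410 and 1890 to 2410 CPM. Ependymal markers (3) summed to 549 to 1440 CPM in sham cells and 193 to 251 CPM at 7 days. They summed to 216 to 274 CPM in libraries of 1 month and 204 to 463 CPM in those of 3 months. Oligodendrocyte precursor markers (6) summed to 6420 to 7760 CPM in sham cells and 6330 to 8140 CPM at 7 days. Their sums were 7850 to 8270 CPM at 1 month and 5080 to 6520 CPM at 3 months. From sham to 7 days the ependymal and astrocyte sums both moved in the direction of HSP70. Within the astrocyte list Gfap went the other way, from 166 to 354 CPM in sham cells to 1140 to 1440 CPM at 7 days. Aqp4 went from 438 to 640 CPM to 177 to 368 CPM, and Slc1a3 from 161 to 372 CPM to 110 to 122 CPM. Endothelial markers (5) summed to 41.6 to 114 CPM in sham cells and 173 to 458 CPM over the injured libraries. At 1 and 3 months the astrocyte sums were 1030 to 1120 and 833 to 1030 CPM, the microglia and macrophage sums 1630 to 2610 and 3900 to 5480 CPM, and the fibroblast and mural sums 617 to 635 and 530 to 533 CPM. None of these markers was at 0 throughout a group. Their part, and that of the immediate early signal, in the HSP70 changes was not tested. Sham cells were taken 7 days after surgery, so at the later times age and time since surgery cannot be told apart from injury.

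**Figure D5:**
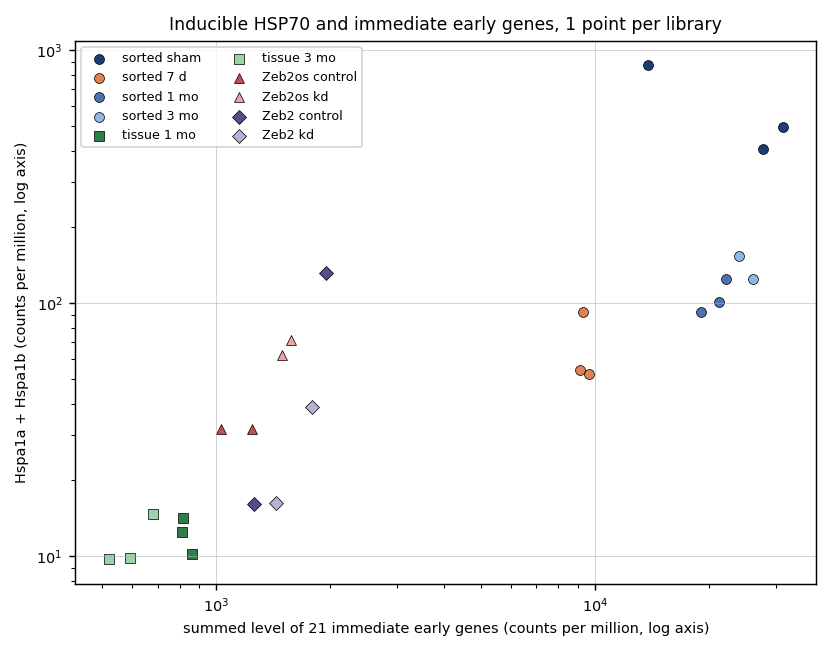
Summed CPM of Hspa1a and Hspa1b (vertical axis, log) against summed CPM of 21 immediate early genes (horizontal axis, log), with 1 point per library. Sorted libraries (circles) lie between 9120 and 31300 CPM on the horizontal axis and tissue libraries (squares) between 520 and 861, and the sham libraries lie above the injured sorted libraries. Each table was scaled on its own.

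Among the ER list, 6 of 27 genes rose and 3 fell at 7 days, with a median of 0.39. Without sham replicate 1, 14 rose and 2 fell, without sham replicate 2, 5 fell, and without sham replicate 3 or any 7-day replicate 1 fell. Edem1, which targets misfolded ER proteins for degradation, rose by 1.47 ± 0.16 (adjusted p = 1.5e-05) and Ppp1r15a fell by 1.38 on the log2 scale (SE 0.3, adjusted p = 0.0039). Of the 8 cytosolic chaperonin subunits, which fold actin and tubulin, 4 rose at 7 days (8 without sham replicate 1), among them Tcp1 at 0.88 ± 0.16 (adjusted p = 0.0011). Of 24 HSP70 relatives and co-chaperones, 2 rose and 4 fell at 7 days, against 9.87% and 8.41% of all genes, with Bag1 at 1.05 ± 0.22 and Hspa2 at -1.65 ± 0.27. Without sham replicate 2 or any 7-day replicate 1 rose, and without sham replicate 3, 7 fell. Hspa12a, a distant HSP70 relative, rose at both later times, by 1.31 ± 0.2 at 1 month (adjusted p = 0.00042) and 1.66 ± 0.21 at 3 months (adjusted p = 9.4e-05). Fkbp5, an HSP90 co-chaperone induced by glucocorticoids, rose by 1.81 ± 0.36 at 7 days (adjusted p = 0.0019).

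Injured sorted cells were compared between neighbouring times, 7 days with 1 month and 1 month with 3 months. Dnajb1 rose from 7 days to 1 month by 0.9 ± 0.15 (adjusted p = 0.0046). It was the single call among the 10 members in the edgeR fit of all sorted libraries, against 1.52% of genes called higher and 1.09% lower. The call was lost without 7-day replicate 2 (adjusted p = 0.061). In that fit Hspa1a was 1.01 ± 0.27 higher on the log2 scale (adjusted p = 0.061) and Bag3 0.85 ± 0.23 higher (adjusted p = 0.066). Hsf1 was 0.53 ± 0.18 higher (adjusted p = 0.16) and Hspb1 changed by -0.92 ± 0.35 (adjusted p = 0.21), none of them called. DESeq2 called Hspa1a (adjusted p = 0.0099) and Bag3 (adjusted p = 0.012) higher. With edgeR on only the 2 groups, Hspa1a (adjusted p = 0.0018), Bag3 (0.00022) and Hsf1 (0.014) were called higher. Hspb1 (adjusted p = 0.0011) and Hspa5 (0.0093) were called lower there. Those 2 settings called 1511 and 3560 genes, against 633. Hspa1b changed by 0.46 ± 0.29 (adjusted p = 0.5) with overlapping groups. From 1 to 3 months none of the 10 members was called by edgeR, against 0.103% of genes called higher and 0.284% lower, and 2859 of 24286 genes had an unadjusted p under 0.05. DESeq2 also called no member there. The members' changes ran from -0.03 to 0.57.

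In tissue from 1 to 3 months, Hspb1 fell and Hsph1 and Hsp90aa1 rose, so 1 of 10 members fell and 2 rose, against 8.01% and 6.69% of 19652 genes. Hspb1 fell from 260, 225 and 217 CPM to 101, 64.5 and 82.4 CPM, a change of -1.5 ± 0.16 (2.83-fold lower, adjusted p = 0.0035) with no overlap. Between these times the microglia and macrophage sum went from 1740 to 2250 CPM to 770 to 952 CPM and the neutrophil sum (3 markers) from 36 to 69.8 CPM to 211 to 2000 CPM, and their part in the Hspb1 change was not tested. Hsph1 rose from 163, 138 and 167 CPM to 215, 247 and 206 CPM (0.51 ± 0.1, adjusted p = 0.018), and the call was lost without 1-month replicate 1 (adjusted p = 0.077) or 2 (adjusted p = 0.065). Hsp90aa1 rose from 679, 654 and 742 CPM to 848, 1010 and 907 CPM (0.41 ± 0.09, adjusted p = 0.023), and it was lost without 1-month replicate 1 or 2 or 3-month replicate 2 or 3 (adjusted p = 0.051 to 0.11). Hspa8 changed by 0.29 ± 0.08 (adjusted p = 0.053), Hspa1a by -0.29 ± 0.13 (adjusted p = 0.18) and Hsf1 by -0.2 ± 0.07 (adjusted p = 0.086, or 0.024 without 3-month replicate 1). The inducible HSP70 genes thus stayed below 10 CPM in the 6 tissue libraries.

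Of 6 small heat shock proteins tested in tissue, 3 fell, with Hspb3 at -1.62 ± 0.29 (adjusted p = 0.015) and Hspb6 at -0.86 ± 0.14 (adjusted p = 0.011), and none of the 3 was called without 1-month replicate 1 or 2. In tissue 4 of 8 chaperonin subunits rose, and those calls were lost without 1-month replicate 1 or 2 or 3-month replicate 3. Of all genes tested in tissue, 6.69% rose and 8.01% fell. Of 21 immediate early genes in tissue, 7 fell, between 2 without 1-month replicate 1 or 2 and 17 without 3-month replicate 1.

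Whether the change with time differed between sorted cells and tissue was tested as an interaction. Hspb1 was the single member called, against 5.92% of genes called higher and 8.08% lower. Its change from 1 to 3 months was 1.99 ± 0.21 higher on the log2 scale in sorted cells than in tissue (adjusted p = 8e-04), since it stood at 17.5 ± 1.01 and 26 ± 2.69 CPM (SD, n = 3 and 2) in sorted cells but at 234 ± 22.7 and 82.6 ± 18.2 CPM (n = 3 and 3) in tissue. Hspa1a (0.67 ± 0.21, adjusted p = 0.057) and Hsph1 (-0.62 ± 0.23, adjusted p = 0.098) did not pass. Leaving out 1-month replicate 1 or 3-month replicate 3 of the sorted libraries moved Hspa1a past the threshold (adjusted p = 0.025 and 0.04), and leaving out sorted 3-month replicate 1 did so for Hsph1 and Hsp90aa1 (adjusted p = 0.012 for each).

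The genes most like 3 of the members across the 11 sorted libraries were found by the root mean square (RMS) difference of gene-centred log2 CPM among 15240 genes. For Hspa1b they were Gabrb1 (0.209), AI464131 (0.356), Gli2 (0.361), Crocc2 (0.362) and Gm17114 (0.365), beside a median of 1.39 over the genes compared. For Dnajb1 they included Tmem59l (0.158), Fgf1 (0.162) and Tcp11 (0.183), beside a median of 0.912. For Hspa5 they were Manf (0.125), Arf2 (0.126), Coa3 (0.126), Calr (0.128) and Eif3i (0.13), beside a median of 0.528. Among these, Manf and Calr encode ER proteins, whereas Gabrb1 encodes a receptor subunit. The libraries share depth and cell makeup across genes, so closeness here is a description. Within the members, Hspa1a was nearer to Hspa1b (RMS 0.414) than to Hspa8 (1.25). From the lowest to the highest sorted library, Hspa1b spanned 18.8-fold and Hspa1a 14.6-fold, against 1.95-fold for Hspa8 and 1.77-fold for Hsf1.

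The cultures labelled knockdown were compared with their controls. In edgeR, Zeb2os itself was not called lower in its set (-0.36 ± 0.35, adjusted p = 0.73), and no gene was called in the Zeb2 set. A lack of member calls therefore cannot show whether the chaperones respond to knockdown of Zeb2os or Zeb2. In the Zeb2os set none of the 10 members was called by edgeR (0.121% of 20741 genes were called higher and 0.0675% lower, and 2424 genes had an unadjusted p under 0.05). Hspa1b stood at 25 and 23.5 CPM in controls and 51.2 and 54.2 CPM in cultures labelled Zeb2os knockdown, a difference of 1.12 ± 0.2 (2.17-fold) with an adjusted p of 0.073. Hspa1a stood at 6.81 and 8.13 CPM against 10.9 and 17.4 CPM (0.92 ± 0.29, adjusted p = 0.25), and Hspb1 at 347 and 166 CPM against 562 and 539 CPM (1.1 ± 0.33, adjusted p = 0.23).

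Both knockdown libraries were above both controls for 6 of the 10 members, these 3 among them, as for 21.3% of all genes tested. In the same cultures astrocyte markers summed to 1220 to 1310 CPM in controls and 629 to 657 CPM in knockdown, fibroblast and mural markers to 7610 to 8550 and 9760 to 10000 CPM, and immediate early genes to 1030 to 1240 and 1490 to 1570 CPM. Their part in the HSP70 difference was not tested. DESeq2 called 2 members, Hspb1 and Hspa1b (adjusted p = 0.013 and 0.00021), as did edgeR without the filter on low counts (adjusted p = 0.006 and 0.00054). Without control replicate 1, Hspa1a (adjusted p = 0.017), Hspa1b (adjusted p = 2.9e-07) and Hspb1 (adjusted p = 2.5e-18) were called higher and Hsph1 lower (adjusted p = 0.02), and without control replicate 2 the same 3 genes were called higher (adjusted p = 0.01, 5.3e-05 and 0.0089). The first of these fits called 4354 genes in all, 2334 of them higher, against 39 with every library. Dnajb1 stood at 50.5 and 52.4 CPM against 62.2 and 64.1 CPM (0.3 ± 0.2, adjusted p = 0.6), and Hsph1 at 159 and 196 against 136 and 142 CPM (-0.36 ± 0.22, adjusted p = 0.57). The other 5 members differed by -0.04 to 0.18.

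In the Zeb2 set none of the 10 members was called, against 0% of 17600 genes in each direction, with 681 genes at an unadjusted p under 0.05 and 32 genes called by DESeq2, none of them a member. Control replicate 2 stood apart in inducible HSP70, with 26.5 CPM for Hspa1a and 104 CPM for Hspa1b against 3.2 and 12.8 CPM in control replicate 1. The knockdown libraries gave 3.83 and 9.46 CPM for Hspa1a and 12.4 and 29.6 CPM for Hspa1b, and each was below control replicate 2. The differences of -1.16 ± 0.97 and -1.48 ± 0.95 turned to 1.06 and 0.72 without control replicate 2. The Zeb2 effect less the Zeb2os effect was -2.04 ± 1.11 for Hspa1a and -2.56 ± 1.06 for Hspa1b, and neither was called (adjusted p = 0.76 and 0.67), nor was any other member, against 0% of 20685 genes (1459 genes at an unadjusted p under 0.05). Without Zeb2 control replicate 2 the first of these was 0.14 and the second -0.4. Hspb1 passed the threshold in this contrast without Zeb2 knockdown replicate 2 (-2.4, adjusted p = 0.018).

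Across the cultures, Hspa5 stood at 2010 to 2330 CPM in the Zeb2os set and 491 to 1240 CPM in the Zeb2 set, and Bag3 at 134 to 162 and 175 to 267 CPM. The sets were scaled separately and differ in the start of selection, so no test was made between them. The ratio of Hspa1b to Hspa1a counts was 2.9 to 4.68 in the cultures, above the 0.788 to 1.85 of tissue and the 1.03 to 2.6 of sorted cells.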

How the data were processed

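The members and gene lists were chosen with earlier results of these data known. The authors deposited raw read counts, not normalized, in 4 tables that cover the 25 libraries. Build mm10 and the tools Cufflinks 2.2.1, TopHat2 2.1.0, DESeq2 and FastQC are named, per the submitters' processing notes. The counting program and its strand setting are not given in the sources used here.

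Each table was fitted alone with edgeR 4.0.16 in R 4.3.3 (filterByExpr at a minimum count of 10, trimmed mean of M values scaling, quasi-likelihood F test, Benjamini-Hochberg threshold 0.05), with all groups of a table sharing the spread. Sham libraries differed more among themselves than injured sorted libraries did. The chi-square of counts per degree of freedom between libraries of a group was 88 to 139 in sham cells and 21.2 to 45.1 in injured sorted groups. The shared spread does not model this difference. Sorted and tissue tables were fitted together for their contrast, since the tissue table holds 43468 of the same identifiers. CPM came from the scaled totals, and lengths and positions from GENCODE M21 (33340 of 33489 Ensembl identifiers matched). Of the identifiers in the Zeb2 table, 33 (0.00161% of its counts) were not in the sorted table and were not used here. The test was also run on simulated counts that gave a gene the same spread in every group. That run cannot show how an unequal spread between groups acts on the calls.

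Genes named beside the members were, of each list and comparison, up to 2 called genes with the largest rise and fall, and the 5 nearest genes of Hspa1b, Dnajb1 and Hspa5 (some of those of Dnajb1 are not reported here). Alternatives were relative log expression scaling, no filter, DESeq2 1.42.0, a replicate block, 2-group fits, each library left out and, chosen after seeing the data, limma 3.58.1 voom weights per sample kind and summed HSP70 counts. The replicate numbers were not taken to pair samples.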

Additional observations from a re-analysis of the deposited data

Results flagged for a closer look

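Hspb1 changed differently with time in the 2 kinds of sample. The change from 1 to 3 months was 1.99 higher on the log2 scale in sorted cells than in tissue (edgeR interaction, SE 0.21, adjusted p = 8e-04). It fell by 1.5 in tissue, and in sorted cells it was 0.57 higher with an adjusted p of 0.58. In the 11 fits that each left out a library, the difference stayed between 1.84 and 2.16 and its adjusted p between 0.00083 and 0.0038. Its transcript shares 44% of its 100-base stretches with annotated pseudogenes, and the part of changing cell makeup was not tested.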

How the results depend on the processing

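Leaving out a library assumes that a lone remaining sample varies like the other groups. Over all members and comparisons 1312 alternative values were computed. No called difference changed direction. Of 34 member calls, 8 were lost in at least 1 fit that left out a library and 9 under at least 1 other setting, 10 in all.

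The number of members called at 3 months against sham was 5, or 2 with only the 2 groups compared, and 3 to 6 with a library left out. From 7 days to 1 month it was 1, or 4 with no filter on low counts, 3 by DESeq2, 6 with only the 2 groups compared, and 0 to 1 with a library left out. In tissue it was 3, or 1 with the replicate block, and 1 to 4 with a library left out. For the difference in time course it was 1, or 2 with relative log expression scaling, 3 by DESeq2, and 1 to 3 with a library left out. In the Zeb2os set it was 0, or 2 with no filter, by DESeq2 or with the replicate block, and 0 to 4 with a library left out. In the Zeb2 set it was 0, or 1 with no filter, and for the difference between the sets 0, or 2 with no filter and 0 to 1 with a library left out.

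Differences not called in the main fits turned direction in 73 values with a library left out and in 14 under other settings. Among these were inducible HSP70 differences of the Zeb2 set without control replicate 2. With a library left out the Zeb2 differences ran from -2 to 1.06 for Hspa1a and -2.32 to 0.72 for Hspa1b, and the difference between the sets from -2.91 to 0.14 for Hspa1a. The cause was not tested.

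Counts of all genes called also moved. They went from 2844 to 885 (3 months against sham, only 2 groups), from 633 to 1406 with no filter, 1511 by DESeq2 and 3560 with 2 groups (7 days to 1 month), from 94 to 749, 650 and 1277 likewise (1 to 3 months), from 2889 to 506 with the replicate block (tissue), and from 3256 to 1259 with voom weights (time course). In the Zeb2os set they went from 39 to 625 with no filter, 553 by DESeq2 and 554 with the block, in the Zeb2 set from 0 to 142, 32 and 79, and between the sets from 0 to 393 and 217. With a library left out the counts ran from 2867 to 5504 (7 days against sham), 1727 to 3471 (1 month), 1189 to 3540 (3 months), 122 to 218 (7 days to 1 month), 7 to 52 (1 to 3 months) and 1929 to 5120 (time course). They ran from 305 (without tissue 1-month replicate 1) to 5980 (without 3-month replicate 1) in tissue, from 20 to 4354 (without control replicate 1) in the Zeb2os set, from 2 to 811 (without knockdown replicate 2) in the Zeb2 set and from 0 to 1582 between the sets, so the background shares move too. Same-numbered replicates correlated under 0.1 outside the Zeb2 set, and the replicate numbers were not taken to pair samples. In the Zeb2 set the correlation was 0.391, a single value, since 2 libraries per group give both pairs the same one. The main fit had no replicate term, so any shared replicate effect in that set stayed in its spread. With the block, 79 genes were called there against 0. Depth limits inducible HSP70 in tissue, at 78 to 250 reads per gene and library.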
